A study of Homo sapiens with 12 samples.

Results

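The experiment described here is the knockdown of XRN2 in LN229, an established human glioblastoma cell line, 6 of the 12 RNA-sequencing libraries of a series that also holds U251, a second glioblastoma line. Its libraries were chosen by their titles: 2 from cells transfected with XRN2 siRNA, 2 from cells transfected with a control siRNA (siNT_OTP in the titles) and 2 from mock-transfected cells. All 6 came from LN229 cells in DMEM with 5% serum, and total RNA was taken 72 hours after reverse transfection. The labels name 1 XRN2 siRNA treatment and 1 control siRNA treatment and do not say whether replicates were separate cultures. The p-values below therefore reflect sample-to-sample spread alone, and that spread may be technical. No sequence of either siRNA is printed, as none of the sources used here holds one.

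XRN2 is a nuclear 5′-to-3′ exoribonuclease. It is known to enter at the end left when a transcript is cut at its poly(A) site, to degrade the RNA still being made behind the polymerase, and to trim precursors of ribosomal and small nucleolar RNA. Glioblastoma lines such as LN229 divide rapidly and express glial and mesenchymal genes together. The comparison asks which messenger RNAs change in such cells when XRN2 is depleted.

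Exon reads per library numbered 4846768 to 7469052 in LN229, so that 3 reads, the upper limit that a count of 0 allows for counting error alone, correspond to 0.381 to 0.605 CPM (read counts scaled to a common library size). XRN2 was at 229 and 235 CPM in mock, 202 and 243 with control siRNA and 33.5 and 25.6 with XRN2 siRNA (replicates 1 and 2 of each group in this order, here and below). Both knockdown libraries thus lay far below all 4 controls (log2 fold change −2.90, SE 0.17, edgeR adjusted p = 3.75e-06). Here and below, SE is worked back from the edgeR test, whose spread is pooled over both lines. It is not the spread of the LN229 libraries alone. Control siRNA replicate 1 stood apart from its partner: introns took 5.58% of its gene reads against 8.76% to 9.55% in the other 5 LN229 libraries, and its log2 ratio to replicate 2 was lower the longer the exons of a gene (rank correlation −0.56 over 12756 genes, not independent of each other, against −0.02 and −0.01 in the XRN2 siRNA and mock pairs). In bulk RNA, fewer cells of a type and less RNA per cell cannot be told apart.

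Because of that library a gene was kept only when it was called against control siRNA (edgeR's quasi-likelihood test, adjusted p under 0.05) and both XRN2 siRNA libraries lay above, or both below, all 4 control libraries. Of 14232 genes tested, 450 (3.16%) were called against control siRNA, 172 higher (1.21%) and 278 lower (1.95%), and 183 (1.29%) against mock, which share the XRN2 siRNA libraries. Both knockdown libraries lay outside the range of the 4 controls for 4672 genes (32.8%), above it for 2273 (16%) and below it for 2399 (16.9%). The kept genes numbered 444 (3.12%), with 169 higher (1.19%) and 275 lower (1.93%). Without TMM factors, which scale each library's size, the split was 274 higher and 195 lower. In a stricter set 135 genes (0.949%) were also called against mock, with 57 higher (0.401%) and 78 lower (0.548%). The counts rest on single libraries and on a spread pooled over both lines: leaving out 1 control siRNA library gave 65 kept genes (replicate 1) or 2003 (replicate 2), leaving out 1 mock library 146 or 134, and leaving out XRN2 siRNA replicate 1 gave 829. Only 1 gene, XRN2, was kept without XRN2 siRNA replicate 2 or in a fit of the LN229 libraries alone. Replicate 2 of XRN2 siRNA had the larger change in 149 of 169 genes kept higher and 253 of 275 kept lower, against 9777 of all 14232.

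The 6 genes that were called but not kept were AC067968.1, FBXL20, JPT1, SASH1, USMG5 and VGF, in which at least 1 control library lay within the range of the knockdown libraries or beyond it. The kept lower genes were all protein-coding, had a median exon length of 3421 bases and were abundant, with a median of 78.0 CPM in the controls. The kept higher genes had a median exon length of 6927 bases and 21.9 CPM, and 156 of 169 (92.3%) were protein-coding. Over all tested genes these values were 4876.5 bases, 28.3 CPM and 91.3%. Calls were made against control siRNA, whose replicate 1 was lower in longer genes, and its part in these lengths was not tested. Median log2 fold changes against control siRNA and mock were 1.00 and 0.82 for genes kept higher and −0.91 and −0.70 for those kept lower.

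Genes that build and run the mitotic spindle were at lower levels after XRN2 knockdown, and part of them passed the test. Of 40 kinetochore and centromere genes all 40 lay below 0 against control siRNA, with 9 kept, and the median log2 fold change was −0.64 against control siRNA and −0.61 against mock. Of 32 mitotic kinases, chromosomal passengers and spindle motors all 32 lay below 0, with 11 kept, and the medians were −0.65 and −0.70. Over all tested genes the medians were −0.001 and −0.004, and 1.93% were kept lower. Earlier results of these data had already shown mitotic genes lower in LN229, so the direction of these lists is no independent evidence. Without TMM factors the median of all genes moved to 0.08, and the members nearest 0 (−0.04 and −0.0047) lie within that shift. Control siRNA replicate 1 against 2 had medians of 0.11 and −0.17 over these lists.

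At the kinetochore the largest falls among the 9 kept genes were in MAD2L1, of the spindle checkpoint, and NUF2, of the NDC80 complex that grips microtubules. MAD2L1 (ENSG00000164109; chromosome 4, 120055608 to 120067074, minus strand) encodes MAD2, the checkpoint protein that holds back anaphase. It was at 86.9 and 86.3 CPM in mock, 98.6 and 85.6 with control siRNA and 42.2 and 19.1 with XRN2 siRNA, so that replicate 2 of the knockdown held less than replicate 1 and both lay below every control (log2 fold change −1.57, SE 0.26, edgeR adjusted p = 0.0141; −1.48 against mock, edgeR adjusted p = 0.0219). NUF2 (ENSG00000143228; chromosome 1, 163266576 to 163355764, plus strand), a coiled-coil subunit of that complex, was at 65.8 and 60.4 CPM in mock, 73.4 and 65.5 with control siRNA and 33.7 and 15.1 with XRN2 siRNA (log2 fold change −1.49, SE 0.27, edgeR adjusted p = 0.0188; −1.35 against mock). CENPB, which binds a repeat in centromeric DNA, was at 200.2 and 192 CPM in mock, 261 and 202 with control siRNA and 133 and 94.3 with XRN2 siRNA (log2 fold change −1.03, SE 0.17, edgeR adjusted p = 0.0140; −0.79 against mock). These 3 were called against both controls.

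Other kept members of the same structures passed against control siRNA only. NDC80 itself was at 40.3 and 46.4 CPM in mock, 60.9 and 50.7 with control siRNA and 36.0 and 20.3 with XRN2 siRNA (log2 fold change −0.97, SE 0.22, edgeR adjusted p = 0.0355; −0.61 against mock, edgeR adjusted p = 0.184). CENPA, the histone that marks the centromere, CENPK and CENPU, of the inner kinetochore, and SKA1 and SKA3, of the complex that follows shrinking microtubules, had log2 fold changes of −0.92, −0.86, −0.97, −0.98 and −1.11. Against mock they were at −0.85, −0.66, −0.74, −0.96 and −1.04, with edgeR adjusted p-values of 0.0514 to 0.113.

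The chromosomal passenger complex, which corrects faulty attachments, had 3 kept members. CDCA8 (borealin) was at 83.2 and 88.2 CPM in mock, 86.1 and 98.4 with control siRNA and 56.4 and 42.4 with XRN2 siRNA and was called against both controls (log2 fold change −0.90, SE 0.15, edgeR adjusted p = 0.0141; −0.79 against mock). AURKB, its kinase, was at 56.0 and 45.3 CPM in mock, 81.3 and 54.4 with control siRNA and 38.1 and 21.2 with XRN2 siRNA, and BIRC5 (survivin) at 254 and 301 CPM in mock, 399 and 296 with control siRNA and 210.3 and 124 with XRN2 siRNA. In both, control siRNA replicate 1 was the highest library, and against mock neither passed (−0.76 and −0.73, edgeR adjusted p = 0.143 and 0.128). PLK1, the kinase that drives entry into mitosis, was at 126 and 139 CPM in mock, 158 and 140.3 with control siRNA and 88.9 and 61.9 with XRN2 siRNA (log2 fold change −0.98, SE 0.17, edgeR adjusted p = 0.0168; −0.81 against mock), and the microtubule depolymerase KIF2C at 114 and 119.8 CPM in mock, 133 and 119 with control siRNA and 76.7 and 53.3 with XRN2 siRNA (log2 fold change −0.95, SE 0.18, edgeR adjusted p = 0.0222; −0.84 against mock). The kinase NEK2, the motors KIF22 and KIFC1, the cytokinesis regulator RACGAP1 and the spindle proteins NUSAP1 and KNSTRN fell by 0.68 to 0.95 on the log2 scale against control siRNA and did not pass against mock. In the last step of division, CEP55 (ENSG00000138180; chromosome 10, 93496632 to 93529092, plus strand), which recruits the membrane-cutting proteins to the midbody, was at 101 and 115 CPM in mock, 102 and 122 with control siRNA and 58.3 and 38.4 with XRN2 siRNA (log2 fold change −1.20, SE 0.20, edgeR adjusted p = 0.0140; −1.16 against mock).

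**Figure D1:**
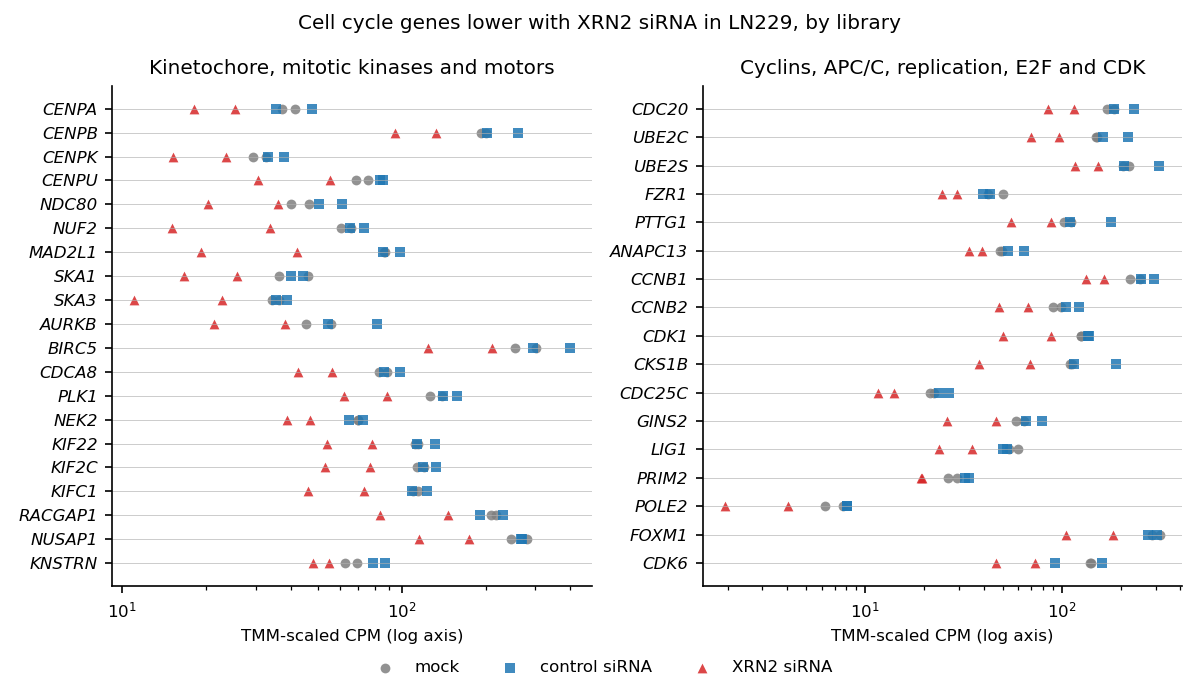
Levels of the 37 kept lower genes of the 7 cell cycle lists in each LN229 library, as TMM-scaled CPM on a log axis; each symbol is 1 library, grey circles mock, blue squares control siRNA, red triangles XRN2 siRNA. In every row both triangles lie left of all 4 control symbols, as the choice of genes fixes; MAD2L1 lies between 19.1 and 42.2 CPM with XRN2 siRNA and between 85.6 and 98.6 in the controls.

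Part of the cyclins and of the ubiquitin ligase that destroys them was lower too. Of 30 genes of the anaphase-promoting complex, the cyclins and the CDC25 phosphatases 25 lay below 0 and 5 above. In this list 11 were kept lower and none higher, where 1.93% of all tested genes were kept lower. The medians were −0.63 against control siRNA and −0.40 against mock. CDC20, the activator of that ligase in early mitosis, was at 170.1 and 185 CPM in mock, 232 and 185 with control siRNA and 115 and 85.6 with XRN2 siRNA. FZR1, its activator in late mitosis and G1, was at 50.2 and 42.4 CPM in mock, 43.2 and 39.9 with control siRNA and 29.4 and 24.5 with XRN2 siRNA, a smaller difference that was still called against both controls (log2 fold change −0.62, SE 0.15, edgeR adjusted p = 0.0451; −0.77 against mock). CCNF (ENSG00000162063; chromosome 16, 2429394 to 2458854, plus strand), cyclin F, which is part of another ubiquitin ligase and was on none of the lists, was at 68.2 and 72.1 CPM in mock, 75.6 and 72.6 with control siRNA and 41.7 and 30.7 with XRN2 siRNA (log2 fold change −1.03, SE 0.17, edgeR adjusted p = 0.0135; −0.95 against mock). CDK1, the mitotic kinase, was at −0.97 against control siRNA and −0.84 against mock, its partner CCNB2 (cyclin B2) at −0.97 and −0.71, and the small subunit CKS1B at −1.50 and −1.05. Of these 3, none passed against mock (edgeR adjusted p = 0.0694, 0.0694 and 0.0842).

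FOXM1, the transcription factor that raises the genes of G2 and mitosis, was at 287 and 317 CPM in mock, 273 and 306 with control siRNA and 182 and 105 with XRN2 siRNA, called against both controls (log2 fold change −1.01, SE 0.21, edgeR adjusted p = 0.0289; −1.07 against mock, edgeR adjusted p = 0.0349). CDK6, the kinase that acts on the retinoblastoma protein in G1, was at 141 and 139 CPM in mock, 92.8 and 160.2 with control siRNA and 73.4 and 46.5 with XRN2 siRNA (log2 fold change −1.07, SE 0.25, edgeR adjusted p = 0.0387; −1.22 against mock). Of the 29 genes of the list of E2F factors, RB proteins and CDK inhibitors these 2 were kept lower, and TFDP2, a dimerisation partner of E2F, was kept higher at 0.68 against control siRNA and 0.26 against mock (edgeR adjusted p = 0.357). Of 47 genes of origin licensing and the replication fork 45 lay below 0 (median −0.47 against control siRNA and −0.48 against mock), but only 4 were kept. LIG1, the ligase that joins Okazaki fragments, was called against both controls (log2 fold change −0.80, SE 0.20, edgeR adjusted p = 0.0487; −0.95 against mock), and PRIM2, the large primase subunit, was at −0.76 and −0.51, the second not passed (edgeR adjusted p = 0.196). None of 20 condensin and cohesin genes or 32 nucleotide synthesis genes was kept (medians −0.40 and −0.31 against control siRNA). Among all tested genes 1.93% were kept lower and 1.19% higher.

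Start regions are shown for some of the lower mitotic genes, only ones that hold the same short word. Of the kept lower genes on the cell cycle lists with a matched promoter window, 16 of 33 held it. TTTGAA is the core of the cell cycle homology region, an element known from promoters of G2 and mitosis genes and read by MuvB complexes. In the stretches below, from RefSeq in GRCh38.p14, capitals mark TTTGAA or its complement TTCAAA. Each runs from 100 bases before the listed transcript start to the base before it, except CEP55, which runs from 130 bases before to 3 bases into the transcript.
CDC20: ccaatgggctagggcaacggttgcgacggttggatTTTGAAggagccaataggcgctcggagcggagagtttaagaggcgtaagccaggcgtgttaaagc
CDCA8: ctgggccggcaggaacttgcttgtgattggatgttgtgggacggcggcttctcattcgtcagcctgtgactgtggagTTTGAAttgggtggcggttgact
PLK1: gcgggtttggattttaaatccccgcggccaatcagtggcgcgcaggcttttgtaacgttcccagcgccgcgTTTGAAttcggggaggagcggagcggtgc
CKS1B: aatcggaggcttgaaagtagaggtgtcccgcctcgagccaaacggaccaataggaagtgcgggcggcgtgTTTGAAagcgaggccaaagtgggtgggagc
CENPA: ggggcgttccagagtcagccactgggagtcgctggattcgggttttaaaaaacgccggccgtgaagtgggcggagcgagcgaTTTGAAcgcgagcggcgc
CCNB2: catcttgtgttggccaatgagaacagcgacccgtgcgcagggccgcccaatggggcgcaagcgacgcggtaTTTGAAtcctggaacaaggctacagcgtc
CEP55: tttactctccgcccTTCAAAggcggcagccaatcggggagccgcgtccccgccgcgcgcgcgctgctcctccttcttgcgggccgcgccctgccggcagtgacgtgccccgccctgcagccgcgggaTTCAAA
They lie at chr1:43358881-43358980, plus strand; chr1:37692416-37692515, plus strand; chr16:23678789-23678888, plus strand; chr1:154974581-154974680, plus strand; chr2:26785956-26786055, plus strand; chr15:59105046-59105145, plus strand; and chr10:93496482-93496614, plus strand, and were picked after the genes' values were seen.

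Promoter windows of 250 bases before to 50 after a start were matched by symbol for 11044 of the 14232 tested genes, and a gene counted as holding a word when any of its listed windows held it on either strand. TTTGAA stood in 16 of 33 matched genes (48.5%) that were kept lower on the cell cycle lists, in 39 of 194 (20.1%) kept lower outside them, in 23 of 129 (17.8%) kept higher and in 14.1% of all matched tested genes. Over whole lists it stood in 22 of 28 mitotic kinases, passengers and motors (78.6%), in 15 of 33 kinetochore genes (45.5%) and in 1 of 41 replication genes (2.44%). CCAAT, the box bound by NF-Y, stood in 60.6% of the kept lower cell cycle genes, 48.1% of the kept higher genes and 43.6% of all matched genes. Counted by window, 15.2% of all 35116 held TTTGAA and 34.6% CCAAT. Kept higher genes had 1.76 windows each and all matched genes 1.47, so more bases were searched per gene in the former. A match is a string of letters in a window and says nothing here of binding.

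Architectural chromatin proteins and histone variants were among the lower genes as well, in families picked after their values were seen. HMGA1, an architectural protein that binds AT-rich DNA, was at 453 and 360.4 CPM in mock, 467 and 373 with control siRNA and 229 and 175 with XRN2 siRNA (log2 fold change −1.05, SE 0.17, edgeR adjusted p = 0.0135; −1.01 against mock). HMGB1, HMGB2 and HMGN1 were kept at −0.83, −0.90 and −0.69 against control siRNA, so that 4 of 10 tested high mobility group genes were kept lower. Of 7 H2A variants and linker histones outside the histone clusters 5 were kept lower, with H2AFX, H2AFV and H2AFZ at −1.14, −0.88 and −0.85 and H1FX and H1F0 at −0.68 and −0.59. Against mock HMGA1 and H2AFX passed and the other 7 did not (log2 fold changes −0.67 to −0.44). Both groups have close paralogs or processed copies, so their counts are uncertain. Among all tested genes 1.93% were kept lower.

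A small group of lysosomal enzymes and their activators was lower after knockdown, while the medians of the whole list lay near 0. Of 49 lysosomal hydrolases and activators 7 were kept lower and 1 higher, where 1.93% of all tested genes were kept lower and 1.19% higher. Of the 49 genes 29 lay below 0 and 20 above, with medians of −0.09 against control siRNA and 0.01 against mock. SUMF1, an enzyme of the endoplasmic reticulum that activates sulfatases by converting a cysteine in their active site, was at 45.1 and 43.7 CPM in mock, 44.2 and 41.9 with control siRNA and 17.6 and 11.4 with XRN2 siRNA (log2 fold change −1.55, SE 0.19, edgeR adjusted p = 0.00649; −1.59 against mock), and its paralog SUMF2 at 338 and 316 CPM in mock, 386 and 291 with control siRNA and 213 and 195 with XRN2 siRNA (log2 fold change −0.73, SE 0.15, edgeR adjusted p = 0.0261; −0.68 against mock). NEU1, the sialidase, was at 72.5 and 81.0 CPM in mock, 85.3 and 77.1 with control siRNA and 29.7 and 22.1 with XRN2 siRNA, and GLB1, the beta-galactosidase, at 108 and 109 CPM in mock, 112 and 107 with control siRNA and 55.6 and 46.3 with XRN2 siRNA. CTSC, a dipeptidyl peptidase, was at −0.81 against control siRNA and did not pass against mock (−0.51, edgeR adjusted p = 0.100). In the other direction CTSO, a cysteine protease, was kept at 0.92, with 0.67 against mock (edgeR adjusted p = 0.0697).

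Of 33 genes of the lysosomal membrane and its proton pump 3 were kept lower and 1 higher (medians 0.02 and 0.14). The shares over all tested genes were 1.93% lower and 1.19% higher. SCARB2, a membrane protein that carries beta-glucocerebrosidase to the lysosome, was at 285 and 292 CPM in mock, 281 and 299.6 with control siRNA and 194 and 127 with XRN2 siRNA (log2 fold change −0.85, SE 0.18, edgeR adjusted p = 0.0271; −0.84 against mock). CD63 and NPC2, a tetraspanin and a cholesterol carrier, were at −0.91 and −0.67 against control siRNA but at −0.52 and −0.26 against mock, where neither passed (edgeR adjusted p = 0.158 and 0.460). MITF, a transcription factor of the family that governs lysosomal genes, was kept higher at 0.73 and was at 0.40 against mock (edgeR adjusted p = 0.272). None of 37 autophagy genes was kept, with medians of 0.13 against control siRNA and 0.10 against mock.

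The word CACGTG, the E-box core that MITF and TFE family factors are known to read, is shown for the 2 genes of the hydrolase and activator list with the smallest p. Capitals mark it in stretches of 150 bases before the start of NEU1 (chr6:31862822-31862971, minus strand) and 100 bases before that of SUMF1 (chr3:4467270-4467369, minus strand).
NEU1: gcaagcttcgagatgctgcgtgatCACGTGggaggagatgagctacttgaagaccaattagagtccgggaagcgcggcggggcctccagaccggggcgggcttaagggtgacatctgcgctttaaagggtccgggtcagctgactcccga
SUMF1: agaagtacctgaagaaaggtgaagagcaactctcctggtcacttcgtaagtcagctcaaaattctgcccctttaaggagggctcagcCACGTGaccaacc
It stood in 10 of 33 matched lysosomal hydrolase genes (30.3%), 12.4% of all matched tested genes and 7.26% of all windows. Among kept genes it stood in 13.2% of the lower and 9.30% of the higher.

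Other lower genes called against both controls encode proteins of the cell surface, of membrane traffic and of the matrix. FZD7 (ENSG00000155760; chromosome 2, 202034587 to 202038445, plus strand), a Frizzled receptor for WNT ligands, was at 76.2 and 77.3 CPM in mock, 70.4 and 58.9 with control siRNA and 33.9 and 25.8 with XRN2 siRNA (log2 fold change −1.11, SE 0.17, edgeR adjusted p = 0.0132; −1.36 against mock). It was the only kept gene among 41 of WNT and Notch signalling, near the 1.93% of all tested genes kept lower. NPTN (neuroplastin), an adhesion molecule of the immunoglobulin superfamily, was at 132 and 112 CPM in mock, 127 and 128 with control siRNA and 65.5 and 33.1 with XRN2 siRNA, and SLCO4A1, an organic anion transporter, at 26.7 and 24.5 CPM in mock, 22.2 and 26.8 with control siRNA and 10.3 and 7.01 with XRN2 siRNA. Their log2 fold changes were −1.36 and −1.48 against control siRNA and −1.29 and −1.54 against mock. CMTM7, a membrane protein with a MARVEL domain, showed a smaller change with close replicates, at 64.5 and 62.8 CPM in mock, 75.4 and 57.3 with control siRNA and 37.7 and 35.8 with XRN2 siRNA (log2 fold change −0.85, SE 0.15, edgeR adjusted p = 0.0174).

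PLEKHB2, a protein of recycling endosomes with a pleckstrin homology domain, was at 178 and 169.7 CPM in mock, 157 and 165 with control siRNA and 82.6 and 43.0 with XRN2 siRNA (log2 fold change −1.35, SE 0.22, edgeR adjusted p = 0.0134; −1.46 against mock). SNX18, a sorting nexin, was at 33.4 and 29.4 CPM in mock, 25.2 and 26.4 with control siRNA and 14.2 and 8.59 with XRN2 siRNA (log2 fold change −1.16, SE 0.21, edgeR adjusted p = 0.0178; −1.44 against mock). In both genes replicate 2 of the knockdown was the lowest of the 6 libraries. CCDC80 and TINAGL1, secreted proteins of the extracellular matrix, fell by 1.04 and 1.01 on the log2 scale against control siRNA and by 1.34 and 1.22 against mock. DHTKD1, a mitochondrial dehydrogenase of lysine breakdown, was at 74.4 and 75.8 CPM in mock, 48.6 and 72.8 with control siRNA and 30.5 and 19.3 with XRN2 siRNA, with control siRNA replicate 1 the lowest control (log2 fold change −1.28, SE 0.22, edgeR adjusted p = 0.0141; −1.58 against mock), and the uncharacterised C2orf74 was at 18.4 and 18.1 CPM in mock, 21.2 and 16.3 with control siRNA and 8.68 and 5.44 with XRN2 siRNA.

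With TMM factors genes kept higher were fewer than those kept lower (169 against 275), but not without them (274 against 195). In the main fit they were also less abundant, and they are given here by function. GAD1 (ENSG00000128683; chromosome 2, 170813213 to 170861151, plus strand), the glutamate decarboxylase that makes the transmitter GABA, was at 29.1 and 27.8 CPM in mock, 32.3 and 23.2 with control siRNA and 62.4 and 79.8 with XRN2 siRNA. Both knockdown libraries held at least 62.4 CPM and no control more than 32.3 (log2 fold change 1.36, SE 0.21, edgeR adjusted p = 0.0125; 1.32 against mock, edgeR adjusted p = 0.0121). SHTN1 (shootin-1), which couples actin to adhesion in growing axons, was at 93.0 and 84.5 CPM in mock, 79.7 and 92.5 with control siRNA and 151 and 177 with XRN2 siRNA (log2 fold change 0.93, SE 0.14, edgeR adjusted p = 0.0125; 0.88 against mock). DMTN (dematin), an actin-bundling protein, was at 5.76 and 6.34 CPM in mock, 6.46 and 6.23 with control siRNA and 13.3 and 21.6 with XRN2 siRNA (log2 fold change 1.44, SE 0.24, edgeR adjusted p = 0.0140). The controls of DMTN agreed closely, within 5.76 to 6.46 CPM, while the knockdown replicates lay apart.

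GREB1 (ENSG00000196208; chromosome 2, 11482341 to 11642788, plus strand), known as a target of the oestrogen receptor, was at 10.9 and 14.3 CPM in mock, 11.1 and 17.2 with control siRNA and 33.4 and 51.9 with XRN2 siRNA (log2 fold change 1.58, SE 0.25, edgeR adjusted p = 0.0132; 1.74 against mock). RGS16, a regulator of G protein signalling, was at 19.4 and 22.5 CPM in mock, 23.0 and 21.2 with control siRNA and 49.7 and 51.2 with XRN2 siRNA, with the 2 knockdown libraries almost equal (log2 fold change 1.19, SE 0.21, edgeR adjusted p = 0.0188; 1.27 against mock). SHC4, an adaptor of receptor tyrosine kinases, was at 15.7 to 20.05 CPM in the 4 controls and 35.8 and 56.3 CPM with XRN2 siRNA (log2 fold change 1.37, SE 0.24, edgeR adjusted p = 0.0144; 1.25 against mock). Metabolic genes of this group were ALDH3B1, an aldehyde dehydrogenase, at 1.27 against control siRNA and 1.30 against mock, and SLC16A4, of the monocarboxylate transporter family, at 1.06 and 0.99. SEL1L3, XKR4 and SPATA6 were at 1.78, 1.34 and 1.09 against control siRNA and 1.97, 1.21 and 0.97 against mock, SEL1L3 and XKR4 from control levels under 5 CPM.

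HMOX1, heme oxygenase 1, an enzyme of heme breakdown that oxidative stress is known to induce, had the largest change among list members that were kept. It was at 37.6 and 42.3 CPM in mock, 35.9 and 47.0 with control siRNA and 158 and 341 with XRN2 siRNA, and the 2 knockdown libraries differed more than 2-fold from each other (log2 fold change 2.58, SE 0.49, edgeR adjusted p = 0.0325; 2.64 against mock, edgeR adjusted p = 0.0423). Of 34 NRF2 targets and redox genes it was kept higher together with ABCC1, a glutathione conjugate exporter (0.72 against control siRNA, 0.55 against mock, edgeR adjusted p = 0.138), and PRDX6, a peroxiredoxin, was kept lower (−0.73 and −0.44). The list's medians were 0.15 against control siRNA and 0.35 against mock. Among all tested genes 1.19% were kept higher and 1.93% lower. The word TGACNNNGC, the core of the antioxidant response element that NRF2 reads, stood in 22.5% of matched genes kept higher, 22.5% of those kept lower, 19.2% of all matched tested genes and 13.3% of all windows.

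The immune and noncoding genes in the group were few. HLA-DQA1, an MHC class II alpha chain, was at 51.7 and 49.7 CPM in mock, 57.1 and 57.4 with control siRNA and 107 and 155 with XRN2 siRNA (log2 fold change 1.19, SE 0.19, edgeR adjusted p = 0.0161; 1.37 against mock), and HLA-DOA, of the class II chaperone DO, at 0.98 against control siRNA and 0.82 against mock (edgeR adjusted p = 0.0528). These were the 2 kept of 11 tested MHC class II genes, where 1.19% of all tested genes were kept higher. The family was picked after its values were seen, and its members share sequence. HCP5, a noncoding RNA from the class I region, was at 1.60 and 1.65 CPM in mock, 1.21 and 2.19 with control siRNA and 5.16 and 6.84 with XRN2 siRNA, and FER1L4, a transcribed pseudogene, at 2.40 and 2.54 CPM in mock, 2.62 and 2.69 with control siRNA and 8.01 and 15.1 with XRN2 siRNA. Their levels are low, the first overlaps other genes by its annotation and the second has paralogs, so which gene the reads came from is uncertain.

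**Figure D2:**
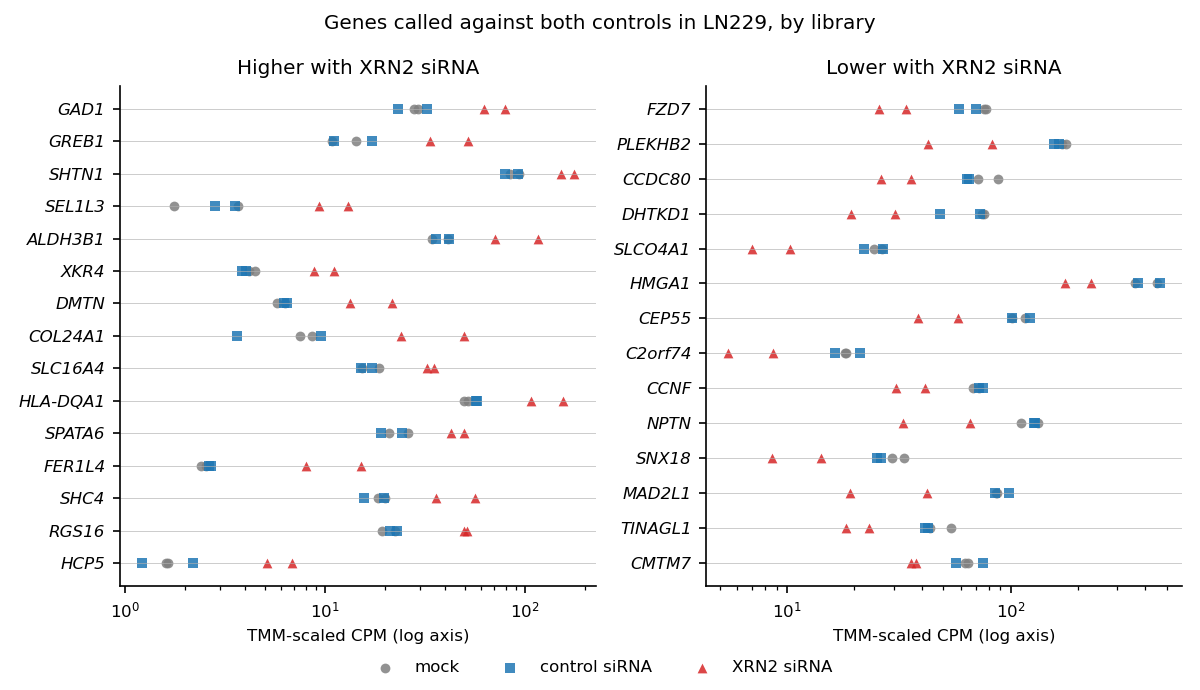
Levels of 15 higher and 14 lower genes called against both controls, in each LN229 library, as TMM-scaled CPM on a log axis; each symbol is 1 library, grey circles mock, blue squares control siRNA, red triangles XRN2 siRNA. No triangle overlaps a control symbol in any row, as the choice of genes fixes; GAD1 runs from 23.2 to 32.3 CPM in the controls and from 62.4 to 79.8 with XRN2 siRNA.

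Matrix and surface families picked after their values were seen held further higher genes. Of 35 collagen chains 5 were kept higher and 1 lower, where 1.19% of all tested genes were kept higher and 1.93% lower. Above 0 against control siRNA lay 28 of the 35 chains, and 6994 of all 14232 tested genes. The median of the chains was 0.36 against control siRNA and 0.27 against mock. COL24A1, a fibrillar chain, was at 7.52 and 8.63 CPM in mock, 3.63 and 9.60 with control siRNA and 24.0 and 49.4 with XRN2 siRNA, with control siRNA replicate 1 the lowest library (log2 fold change 2.43, SE 0.38, edgeR adjusted p = 0.0132; 2.17 against mock). COL11A1, another fibrillar chain, was far more abundant at 1101 and 1349 CPM in mock, 933 and 1239.9 with control siRNA and 2208 and 2173 with XRN2 siRNA (log2 fold change 1.01, SE 0.16, edgeR adjusted p = 0.0132; 0.84 against mock). COL7A1 and COL5A3 were at 0.87 and 0.91 against control siRNA and 0.70 and 0.90 against mock (edgeR adjusted p = 0.0603 and 0.0515). The chain kept lower was COL13A1, a transmembrane collagen, at 7.68 and 4.95 CPM in mock, 6.86 and 6.06 with control siRNA and 2.31 and 1.93 with XRN2 siRNA (log2 fold change −1.59, SE 0.33, edgeR adjusted p = 0.0277; −1.54 against mock).

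Of 14 glutamate and GABA receptor subunits 3 were kept higher and none lower. Among all tested genes 1.19% were kept higher and 1.93% lower, the shares to set beside each family of this paragraph. GRIK3, a kainate receptor subunit, was at 0.960 and 1.90 CPM in mock, 2.02 and 1.35 with control siRNA and 7.33 and 6.49 with XRN2 siRNA, low in all controls (log2 fold change 2.04, SE 0.45, edgeR adjusted p = 0.0434; 2.22 against mock). GRIK2 and GABRE were at 0.97 and 1.02 against control siRNA and 0.78 and 0.69 against mock, where neither passed (edgeR adjusted p = 0.0887 and 0.122). Of 13 regulators of G protein signalling RGS16 and RGS8 were kept higher (2.03 for RGS8, from controls of 1.02 to 1.85 CPM) and RGS4 lower (−1.09). Of 8 plexins, receptors for semaphorins, PLXNB1 and PLXNB3 were kept higher (0.69 and 0.92; 0.32 and 0.78 against mock). IGFBP4, IGFBP6 and IGFBP7, which bind insulin-like growth factors in the medium, were kept lower of 6 tested (−1.07, −0.91 and −1.12), and TUBA1B, TUBB4B and TUBB6 of 16 tubulins (−0.86, −0.71 and −0.75). None of these 6 passed against mock.

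Nutrient transporters were among the kept higher genes against control siRNA, and none of them passed against mock. Of 26 amino acid and glucose transporters 4 were kept higher and none lower, where 1.19% of all genes were kept higher, and the list's medians were 0.07 against control siRNA and 0.06 against mock. SLC6A6, the taurine transporter, was at 224 and 204 CPM in mock, 165 and 229.7 with control siRNA and 462 and 631 with XRN2 siRNA (log2 fold change 1.47, SE 0.31, edgeR adjusted p = 0.0313), and fell short of the threshold against mock at 1.35 (edgeR adjusted p = 0.0536). SLC2A10, a glucose transporter of the GLUT family, SLC7A6, a cationic amino acid exchanger, and SLC38A7, a glutamine transporter, were at 0.92, 0.81 and 0.76 against control siRNA and 0.61, 0.40 and 0.74 against mock (edgeR adjusted p = 0.143, 0.277 and 0.0694). Of all 209 tested solute carriers, a family picked after its values were seen, 7 were kept higher and 2 lower. Over all tested genes the shares were 1.19% higher and 1.93% lower. In the 4 transporters named control siRNA replicate 1 was the lowest of the 6 libraries.

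Signalling, cilium and chromatin lists held 1 or 2 kept genes each, where 1.19% of all tested genes were kept higher and 1.93% lower. In TGF-beta and BMP signalling (43 genes) TGFBR2 was kept higher and ID1, a target gene that blocks basic helix-loop-helix factors, lower (log2 fold change −1.17, SE 0.23, edgeR adjusted p = 0.0235; −0.98 against mock, edgeR adjusted p = 0.0565). Among cilium and axonemal dynein genes (37) IFT81, of the transport particle of cilia, was kept higher beside DNHD1 (log2 fold change 0.98, SE 0.16, edgeR adjusted p = 0.0141; 0.79 against mock). KDM5B, a histone H3 lysine 4 demethylase, was the 1 kept gene of 48 chromatin remodelers and lysine methyltransferases (log2 fold change 0.85, SE 0.16, edgeR adjusted p = 0.0188), and was at 0.48 against mock (edgeR adjusted p = 0.135). Of receptor tyrosine kinases (30), protein kinase C, D and phospholipase genes (28) and purinergic and potassium channels (26), AATK, PRKCD and P2RX7 were kept, all higher.

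Medians of 3 housekeeping lists lay below 0 against control siRNA and nearer 0 against mock. The 42 proteasome genes had medians of −0.37 and −0.10, the 48 mitochondrial ribosome genes −0.35 and −0.06 and the 34 chaperones −0.33 and −0.17. Over the same lists control siRNA replicate 1 against 2 had medians of 0.47, 0.54 and 0.13, whose part was not tested. Of these lists' genes only PSMC3, MRPL12 and MRPL18 were kept lower (−0.81, −1.01 and −0.86), near the 1.93% kept lower over all tested genes. Against mock all 3 missed the threshold (edgeR adjusted p = 0.225, 0.173 and 0.269). In each of the 3 genes control siRNA replicate 1 was the highest library. The same held for SEC61B, of the channel into the endoplasmic reticulum, TMED10, of secretory coats, SNX5, of endosomal sorting, TMSB4X and ARPC5, of the actin cytoskeleton, and MT1E, a metallothionein with close paralogs, all kept lower and none passed against mock.

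RNA metabolism is the field of XRN2 itself, and its kept genes were read against 1.93% kept lower over all genes. Of 52 genes of RNA polymerase II, elongation factors and the Integrator, POLR2D and NELFE were kept lower (−0.56 and −0.76; −0.30 and −0.42 against mock, edgeR adjusted p = 0.259 and 0.201). Of 34 genes of nonsense-mediated decay and deadenylation CNOT11 was (−0.87; −0.76 against mock, edgeR adjusted p = 0.0880). Of 45 nuclear pore and import genes RANGAP1, RCC1 and KPNA2, which serve the Ran cycle and import, were kept lower (−0.54, −0.61 and −0.65), and none passed against mock (edgeR adjusted p = 0.0772, 0.0708 and 0.217). The 20 cytosolic tRNA synthetases, 33 apoptosis genes, 22 clock genes and 29 genes of the citrate cycle and fatty acid oxidation had none kept, with medians of −0.09, −0.14, 0.18 and −0.04 against control siRNA. In all, 26 of the 34 lists held a kept gene, where 3.12% of all tested genes were kept. The lists had 20 to 52 tested genes each, so many would hold a kept gene at that share alone.

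**Figure D3:**
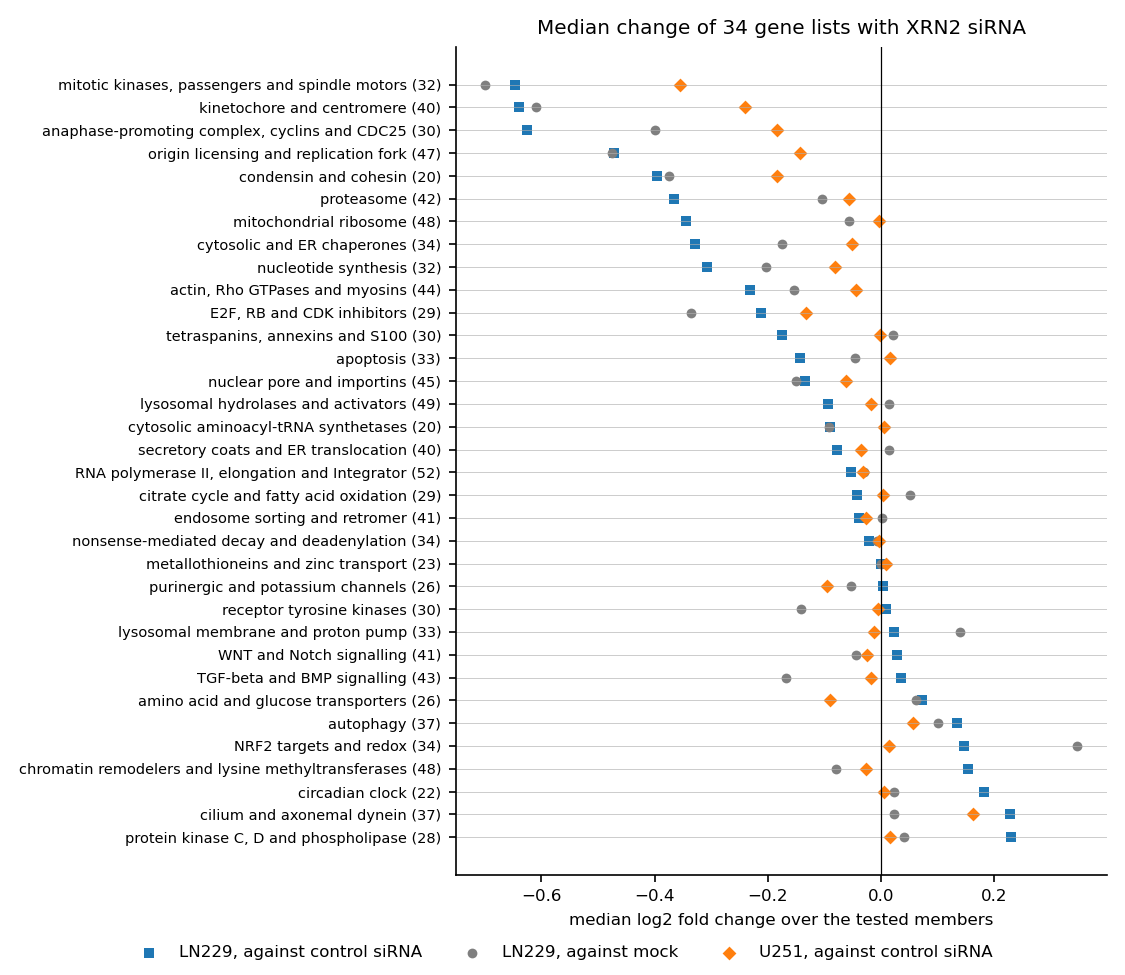
Median log2 fold change with XRN2 siRNA over the tested members of 34 gene lists (number tested in brackets), sorted by the value against control siRNA; blue squares LN229 against control siRNA, grey circles LN229 against mock, orange diamonds U251 against control siRNA. The mitotic, kinetochore and replication lists lie below −0.4 against both LN229 controls, while the proteasome list is at −0.37 against control siRNA and −0.10 against mock.

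Reads in introns give a second view, since they come largely from RNA not yet spliced. They were fitted in the same way for 12444 genes, with mock as the control here because control siRNA replicate 1 held few intron reads. Among the kept higher genes 135 of 148 with an intron fit lay above 0 against mock (median 0.60), and among the kept lower genes 177 of 220 lay below 0 (median −0.43). Of all 11079 genes tested in both kinds of read 5423 lay above 0. The 35 lower cell cycle genes with an intron fit had almost the same median in introns as in exons, −0.77 and −0.81, and 33 lay below 0. The 185 other lower genes had medians of −0.38 in introns and −0.67 in exons, and 41 of them lay above 0. Exon and intron reads come from the same libraries, and the difference between these groups was not tested.

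Several of the lower genes had intron reads at or above the mock level. On the log2 scale against mock, SUMF1 stood at 0.12 (SE 0.21) in introns and −1.59 in exons, NPTN at 0.08 (SE 0.23) and −1.29, CTSB at 0.51 (SE 0.33) and −0.92, and STARD3NL, a late endosome protein, at 0.29 (SE 0.25) and −1.16. XRN2 itself, the siRNA target, was at 0.10 (SE 0.21) in introns. In MAD2L1, NUF2, PLK1 and HMGA1, by contrast, introns were at −1.26, −0.78, −1.07 and −0.94. Among higher genes HMOX1 had 3.17 (SE 0.74) in introns and 2.64 in exons, from low intron levels of 3.10 and 3.85 CPM in mock. With control siRNA its introns were at 7.10 and 19.6 CPM, and the intron change against that control was 1.13 (SE 0.63). Neither intron change was called (edgeR adjusted p = 0.0777 against mock and 0.525 against control siRNA). Those named in this paragraph were picked after their values were seen.

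**Figure D4:**
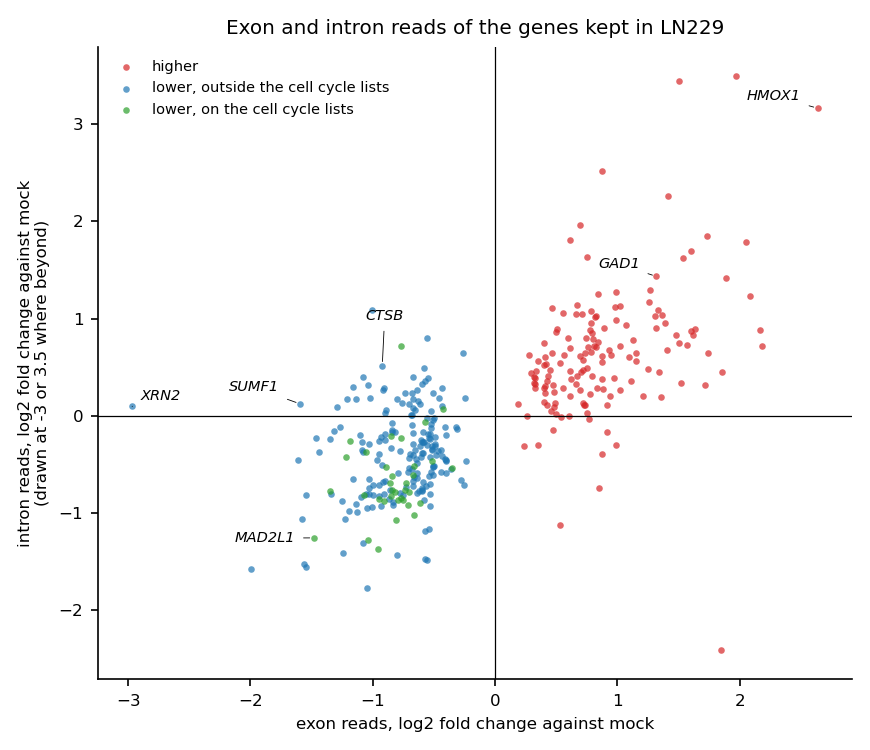
Log2 fold change of intron reads (vertical axis) against that of exon reads (horizontal axis), XRN2 siRNA over mock in LN229, for the 148 higher and 220 lower kept genes with an intron fit; red points were kept higher, green points lower and on a cell cycle list, blue points lower and on none. Most red points lie above 0 on the vertical axis (135 of 148); SUMF1, CTSB and XRN2 lie at or just above 0 there while their exon reads lie well below.

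By itself the intron test called 35 genes against control siRNA (0.281%) and 31 against mock (0.249%), and 12 (0.0964%) against both with the knockdown libraries outside all 4 controls. On a CPM scale of intron reads alone, GAD1 introns were at 143 and 142 in mock, 85.2 and 132 with control siRNA and 288 and 487 with XRN2 siRNA (log2 fold changes 1.78 and 1.43 against control siRNA and mock). SIPA1L2, SLC24A2, LRRTM4, LINC01411 and AL591845.1 were higher in introns and among the kept higher genes in exons. HS1BP3 introns were at 71.4 and 69.2 in mock, 74.5 and 51.6 with control siRNA and 184 and 286 with XRN2 siRNA, 1.94 and 1.73 on the log2 scale, while its exon reads were at 0.05 and 0.36 and were not called. TMEM132A introns were at 31.0 and 30.8 in mock, 24.8 and 30.3 with control siRNA and 93.4 and 95.9 with XRN2 siRNA, with exon reads at 0.30 and 0.60, also not called. CDRT1 was the other gene higher in introns. CMTM1 introns were lower, at 141 and 183 in mock, 163 and 153 with control siRNA and 40.7 and 27.4 with XRN2 siRNA, as were those of CU634019.1 and AC187653.1. The library kit keeps no strand, so reads of overlapping genes may be among these.

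U251, the second line, gave the response of an independent set of libraries. Of the kept lower genes 243 of 275 lay below 0 in U251 against its own control siRNA, with a median of −0.26, and of the kept higher genes 120 of 169 lay above 0, with a median of 0.19. Of all tested genes 7192 of 14232 lay above 0 (median 0.003). Side by side with the values above, U251 had MAD2L1 at −0.45 (SE 0.26), NUF2 at −0.78 (SE 0.27) and FZD7 at −0.42 (SE 0.19). HMGA1 was at −0.29 (SE 0.18), HMOX1 at 0.76 (SE 0.48) and GAD1 at 0.19 (SE 0.30) there. SHC4 was at −0.45 (SE 0.37). None of these genes was called in U251 against its control siRNA, so their directions there are not results by themselves. One U251 mock library held 113 CPM of HMOX1, above both U251 knockdown libraries (67.2 and 73.3).

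No gene passed the test of the difference between the lines (0 of 14232, 0.0%; 945 at an unadjusted p under 0.05, and 15 in DESeq2), so no change above can be called particular to LN229. Among the kept genes with the smallest p for that difference, SORBS2, an adaptor of actin, was at 0.68 in LN229 and −0.48 in U251 (difference 1.16, SE 0.20). AKAP6, which anchors protein kinase A, was at 1.90 and −0.20 (difference 2.10, SE 0.41), and INPP5F, a phosphoinositide phosphatase, at 0.64 and −0.34. COL11A1 was at 1.01 and −0.12, and TGFBR2 at 0.97 and −0.21. On the lower side were NEU1 (−1.64 and −0.44), SUMF1 (−1.55 and −0.15), MT1E (−1.09 and 0.17), H1F0 (−0.59 and 0.17) and TRNP1 (−1.17 and 0.25). The edgeR adjusted p of the difference was 0.411 or 0.526 for all 10.

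**Figure D5:**
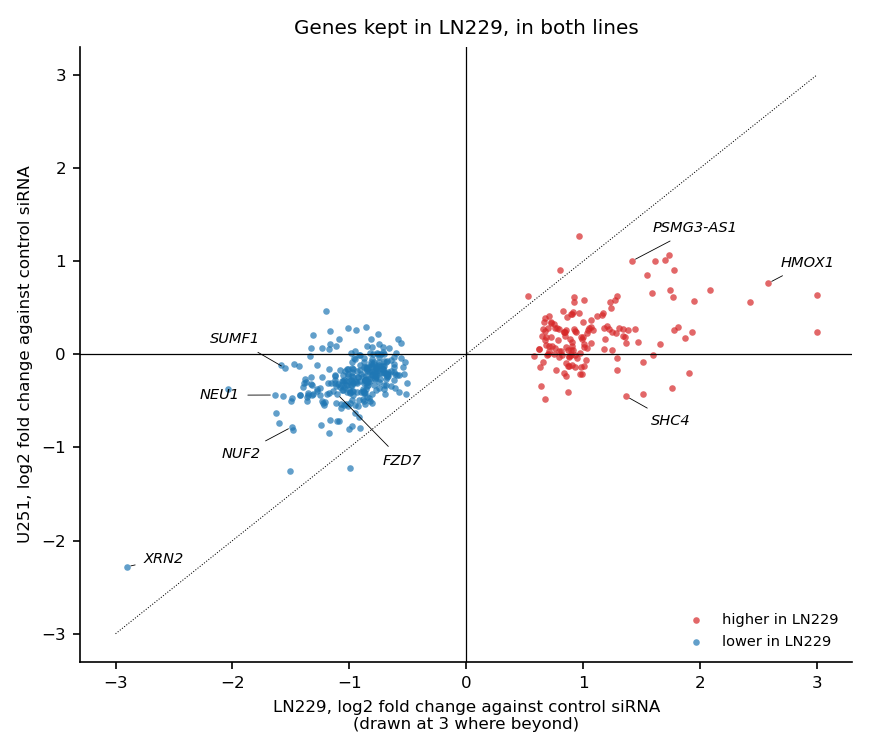
Log2 fold change of XRN2 siRNA over control siRNA in LN229 (horizontal axis) and U251 (vertical axis) for the 420 kept genes with a mean of at least 1 CPM in U251; red points were kept higher and blue points lower in LN229, the dotted line marks equal values, and 2 genes beyond 3 are drawn at 3. Of the lower genes 242 of 272 lie below 0 in U251 and of the higher genes 113 of 148 above 0; XRN2 is at −2.90 and −2.28.

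Control siRNA and mock differed in no gene by the same test in LN229 (0 of 14232, 0.0%; 647 at an unadjusted p under 0.05, and 1 in DESeq2). Marker lists of cell types were summed in each library as CPM of all exon reads, without TMM factors, while single genes below are TMM-scaled. The factors were 1.09 and 1.13 with XRN2 siRNA and 1.02 to 1.06 in the controls. In all but the fibroblast list the knockdown sums lay outside the range of the controls. Summed blood cell markers were at 8.70 to 10.5 CPM in the controls and 1.97 to 6.49 with XRN2 siRNA (9 markers), and endothelial markers at 3.51 to 4.82 and 8.85 to 10.6 (6 markers). The 7 epithelial markers summed to 87.4 to 125 and 63.8 to 78.9 CPM, and the 6 fibroblast and pericyte markers to 446 to 601 and 537 to 554, with LUM kept lower. Of these 6 fibroblast and pericyte markers 4 lay above 0 against control siRNA and 2 below. The 10 glial and neural stem markers summed to 5209 to 6591 CPM in the controls and 3731 to 4632 with XRN2 siRNA, most of it VIM and NES. The astrocyte markers GFAP (1.05 to 4.31 CPM) and SLC1A3 (0 to 0.811 CPM) were near the floor in all 6 libraries, and no gene of this list was called. Oligodendrocyte markers (5) summed to 901 to 1019 and 1175 to 1446 CPM. Against control siRNA 4 of the 5 lay above 0, and MAG lay below at −0.77. MBP, a myelin protein, was kept at 1.81 from control levels near 1 CPM, a call that did not hold in unique exon reads (−0.10). Neuronal markers (6, STMN2 at 0) summed to 424 to 439 and 481 to 524 CPM. The part of these levels in the results above was not tested.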

How the data were processed

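RNA libraries were made with a TruSeq RNA v2 kit, per the labels' protocols, which keeps no strand. The deposited tables hold, per the file headers, counts of total exon reads, unique exon reads and intron reads for 58174 genes in each library. GRCh37 and hg19 are the builds in the submitters' processing notes, yet 96.9% of the gene positions shared with GENCODE 29 are those of GRCh38, so positions are given as GRCh38.

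Total exon read counts of all 12 libraries were fitted with edgeR 4.0.16 in R 4.3.3: genes with at least 10 counts in enough libraries (15 in total), TMM factors, 1 mean per group, robust quasi-likelihood F-tests with 6 residual degrees of freedom, and Benjamini-Hochberg adjustment over 14232 genes. The fit was also run on counts simulated from its own spread, without a length trend or an outlying library. That run therefore says nothing of how the fit handles these features of the data. Levels are TMM-scaled CPM, except the summed marker levels, which are CPM of all exon reads without TMM factors. SE is the size of the log2 fold change over the square root of the F statistic. Replicate pairs differed unequally. Their chi-square per gene was 2.61 in LN229 mock, 19.4 in LN229 control siRNA and 7.49 in LN229 XRN2 siRNA. In U251 it was 27.2 in mock, 2.53 with control siRNA and 1.73 with XRN2 siRNA. A pooled SE can therefore differ from the spread of the LN229 groups. Groups came from the sample titles. Library totals were 4846768 to 7469052 exon reads in LN229.

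Members, gene lists, the rule for names and the promoter words were chosen with earlier results of these data known, and gene families, intron comparisons and printed promoters after the values were seen. Named were XRN2, the 15 higher and 15 lower genes called against both controls by the smallest of their larger p-values, changed at least 1.5-fold and not named in earlier results, up to 3 kept genes per list and direction, and the 5 higher and 5 lower kept genes with the smallest p for the difference between lines; further kept members of the lists and families were named after their values were seen. A few of the genes so chosen are not reported here. Alternatives were DESeq2 1.42.0, other scaling and filters, smaller fits, unique exon reads, an exon length offset, a replicate block and each library left out.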

Additional observations from a re-analysis of the deposited data

How the results depend on the processing

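XRN2 stayed low in every fit run. Counts of called genes moved with the fit. Against control siRNA 450 became 773 in DESeq2, 1550 without a filter, 817 against the mean of both controls, 4 with the compared groups alone and 1 with the LN229 libraries alone. Against mock 183 became 412, 1026, 103 with the compared groups alone, 1 with LN229 alone and 449 with an exon length offset. The 444 kept genes became 756 in DESeq2, 1336 without a filter, 813 against both controls, 4 and 1 in the smaller fits; 393 of the 444 were kept in DESeq2 and 409 with the length offset. The 135 called against both controls became 287, 668, 301 with the length offset and 1 with LN229 alone. Leaving out 1 library at a time gave 1 to 3296 calls against control siRNA, 1 to 658 against mock, 1 to 2003 kept and 1 to 514 called against both, lowest without XRN2 siRNA replicate 2. Without control siRNA replicate 1, 46 of the 444 were kept among 65, and without mock replicate 1 or 2 only 2 or 8 genes were called against both controls. Without U251 mock replicate 2, 286 were called against mock. The difference between lines (0) became 15 in DESeq2, 144 without a filter and 0 to 1115 leaving out a library, and control siRNA against mock (0) became 1, 70 and 0 to 1913, both highest without control siRNA replicate 2. Where a group kept 1 library, that library was assumed to vary like the other groups. The cause was not tested. Of 92 named genes besides XRN2, 92 lost their call without XRN2 siRNA replicate 2, 68 without control siRNA replicate 1, 34 and 35 without mock replicate 1 or 2, 89 with the compared groups alone and 11 without TMM factors, which moved the median of all genes to 0.08; MBP reversed in unique exon reads (−0.10). Libraries share only a replicate number (correlations of deviations −0.04 to 0.07); with the replicate block 573 genes were called against control siRNA, 215 against mock, 564 kept and 178 called against both.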

Other observations

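Further genes called against both controls and outside the lists described above include transcription factors of early development. HAND2, a basic helix-loop-helix factor of limb, heart and neural crest, was at 6.40 and 8.88 CPM in mock, 9.68 and 8.25 with control siRNA and 18.7 and 29.6 with XRN2 siRNA (log2 fold change 1.43, SE 0.29, edgeR adjusted p = 0.0261; 1.64 against mock). DLX5, a homeobox factor of bone and forebrain, was at 6.72 and 9.39 CPM in mock, 12.3 and 7.07 with control siRNA and 20.8 and 28.9 with XRN2 siRNA (log2 fold change 1.37, SE 0.27, edgeR adjusted p = 0.0225; 1.60 against mock). CEBPD, a factor of acute-phase and differentiation genes, was at 13.4 and 11.9 CPM in mock, 19.6 and 14.5 with control siRNA and 34.9 and 80.5 with XRN2 siRNA (log2 fold change 1.76, SE 0.37, edgeR adjusted p = 0.0335; 2.18 against mock). All 3 were higher in both knockdown libraries than in any control, and in U251 DLX5 and CEBPD were at 0.12 and −0.36. FGF1, a growth factor, and UBA7, the enzyme that activates ISG15, were at 1.51 and 1.04 against control siRNA and 1.34 and 1.09 against mock.

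The genes named in this paragraph and the one before were picked after their values were seen. ITM2B, a membrane protein processed by furin, was at 234 and 231 CPM in mock, 274 and 209.5 with control siRNA and 149 and 96.4 with XRN2 siRNA (log2 fold change −0.97, SE 0.20, edgeR adjusted p = 0.0253; −0.92 against mock). S100A16, a calcium-binding protein, was at −0.85 against control siRNA and −0.54 against mock (edgeR adjusted p = 0.213).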
